A study of Homo sapiens with 10 samples.

Results

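The epidermal growth factor (EGF) receptor family was followed through 7 genes: the receptors EGFR, ERBB2 and ERBB3, and the ligands AREG (amphiregulin), EREG (epiregulin), HBEGF (heparin-binding EGF-like growth factor) and TGFA (transforming growth factor alpha). They were chosen by gene name among the 18034 gene IDs of the deposited tables, and all 7 were found. Transcript levels had been measured by mRNA sequencing in HCT116, a human cell line established from a colorectal carcinoma, in 5 groups of 2 libraries. EPZ libraries came from cells kept for 72 h in 10 µM EPZ-5676, which inhibits the histone methyltransferase DOT1L, and DMSO libraries from cells given DMSO. The other 3 groups are HCT116 cells with CDK9 knocked down by shRNA and no drug: K56A was reconstituted with CDK9 carrying alanine in place of lysine at residue 56, WT with wild-type CDK9, and the third is labelled EV, which the labels do not expand. Whether the lines are clones or pools is not given in the sources used here. The study's title concerns CDK9 methylation by DOT1L and the repair of broken DNA.

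The receptors are transmembrane tyrosine kinases that pair on ligand binding and signal through the RAS to ERK cascade and through PI3 kinase and AKT. EGFR binds all 4 ligands described here. ERBB2 has no known ligand and serves as the preferred partner of the other receptors, and ERBB3 binds neuregulins, has a weak kinase and recruits PI3 kinase. The ligands are made as membrane precursors and cut free by ADAM metalloproteases. In the gut they sustain renewal of the epithelium, and AREG and EREG are much studied in colorectal cancer in connection with antibodies against EGFR.

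Levels are FPKM (fragment counts divided by transcript length and by library size), summed over the transcripts of a gene. DOT1L, the inhibitor's target, had 10.5 ± 0.219 FPKM in EPZ and 12.6 ± 0.0298 FPKM in DMSO (SD, n = 2 each). CDK9 averaged 2556 ± 78.3 FPKM in K56A, 3018 ± 59.8 FPKM in WT and 17.9 ± 2.19 FPKM in EV. In the inhibitor experiment, which was normalized separately, it averaged 40.2 ± 2.43 FPKM in EPZ and 40.7 ± 4.47 FPKM in DMSO. Putting CDK9 back thus left its RNA far above the level in cells without the knockdown. DOT1L also stood at 718 ± 21.4 FPKM in K56A, 573 ± 6.88 FPKM in WT and 333 ± 13.1 FPKM in EV, so the 3 knockdown lines share a high DOT1L level that their labels do not mention. All 7 markers of colorectal epithelium were present in every library, with a lowest value of 25.9 FPKM. Of 4 leukocyte markers, PTPRC, CD3E and LYZ were at 0 or not listed, and the list summed to 0.157 to 0.725 FPKM. Of 3 endothelial markers CDH5 was at 0 or not listed, and PECAM1 and VWF together came to at most 0.257 FPKM. Of 5 fibroblast markers COL1A2, COL3A1 and DCN were at 0 or not listed, but the list summed to 19.4 to 36.3 FPKM, nearly all of it COL1A1 (a collagen I chain), with PDGFRB at no more than 0.174 FPKM. The tables hold no counts, so the depth is unknown, but repeated ratios of low values put the other 3 inhibitor libraries between 1.07 and 1.29 times as deep as DMSO replicate 1. DMSO replicate 1 had 54216 transcripts above 0, against 59403 to 59913 in the other inhibitor libraries. The DMSO replicates were the least alike pair, with r = 0.981 across genes against 0.990 to 0.994 in the other groups. In bulk RNA, fewer cells expressing a gene and less RNA per cell cannot be told apart.

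No receptor or ligand passed the threshold, a Benjamini-Hochberg adjusted p of 0.05 over all genes, in any comparison by limma on log2(FPKM + 0.5). In EPZ versus DMSO, 0 of 7 members passed, beside 1 of 13130 genes (0.00762%). The count was 0 of 6 in WT versus EV, beside 62 of 11566 genes (0.536%), 0 of 6 in K56A versus EV, beside 91 genes (0.787%), and 0 of 6 in K56A versus WT, beside 7 genes (0.0605%). HBEGF is the member missing from these 3, because a transcript of it is listed in only 1 knockdown table. At an unadjusted p under 0.05, 1 member (EREG) stood out in EPZ versus DMSO, beside 5.83% of genes. AREG and EREG, 2 members, did so in WT versus EV, beside 13.5% of genes, and the same 2 in K56A versus EV, beside 15.1% of genes. In K56A versus WT the count was 0, beside 13.0% of genes. WT and K56A share the EV libraries, so their differences from EV are not independent. The labels do not say that replicates are separate cultures, so these p-values measure only the spread between the libraries, which may be technical.

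AREG and EREG, the most abundant members, are neighbours on chromosome 4 (build GRCh38). EREG (ENSG00000124882) lies at chr4:74365145-74388749 and AREG (ENSG00000109321) at chr4:74445136-74455005, both on the plus strand, with 56.4 kb between the end of EREG and the start of AREG. The promoter of each is shown because these 2 genes took the lower values side by side in both lines compared with EV. The 120 bases before each start are from RefSeq (GRCh38.p14), plus strand, at chr4:74365025-74365144 for EREG and chr4:74445016-74445135 for AREG, each ending at the base before the first base of the gene's main transcript. Capitals mark motif matches. In EREG they are the CCAAT box and, nearer the start, TATAAA, the core element bound by the TATA-binding protein. In AREG they are the cyclic AMP response element TGACGTCA, then TATAAA, and a GC box (GGGCGG on the opposite strand) next to the start.
EREG: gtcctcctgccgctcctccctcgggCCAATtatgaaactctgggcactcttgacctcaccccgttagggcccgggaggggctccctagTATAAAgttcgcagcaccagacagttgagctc
AREG: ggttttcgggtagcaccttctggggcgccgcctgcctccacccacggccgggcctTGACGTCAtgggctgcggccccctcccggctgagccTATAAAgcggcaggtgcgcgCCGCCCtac

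Both promoters hold TATAAA close to the start, with its first base at -32 in EREG and -29 in AREG (-1 is the base before the start). Over 300-base windows (250 bases before to 50 after the start, both strands), 11.5% of 35116 RefSeq promoters hold TATAAA. TGACGTCA begins at -65 in AREG and is in 1.85% of all promoters, and none was found in the EREG window. EREG has CCAAT at -95 and, upstream of the stretch shown, at -196, and 34.6% of promoters hold it. GGGCGG begins at -9 in AREG, and 45.0% of promoters hold it. The AP-1 letters TGANTCA (7.71% of promoters) and the E-box CACGTG (7.26%) were in neither window. Of the 7 members, 6 were matched in the RefSeq promoter table (EGFR, ERBB2, AREG, EREG, HBEGF and TGFA). The starts listed for ERBB2, HBEGF and TGFA had no TATAAA. For EGFR, the start at the first base of its transcript had none, and a second listed start inside the gene had 2. These matches describe letters and do not show binding.

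EREG showed the largest differences among the members tested in EPZ versus DMSO, WT versus EV and K56A versus EV. It had 46.2 and 52.4 FPKM in the EPZ libraries, against 60.5 and 79.7 FPKM in the DMSO libraries. Both EPZ values lay below both DMSO values, and the DMSO libraries differed from each other more than the EPZ libraries did. The log2 difference was -0.49 ± 0.15 (SE), with a 95% interval of -0.85 to -0.14 and an adjusted p of 0.756 (limma). Without DMSO replicate 1 it was -0.69 with an adjusted p of 0.00203, and the lone DMSO library was then assumed to vary like the EPZ libraries. Without DMSO replicate 2 it was -0.30.

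EREG stood at 162 and 170.1 FPKM in K56A, 171 and 171 FPKM in WT, and 208 and 185 FPKM in EV, the knockdown lines. Both K56A values and both WT values lay under both EV values, and both K56A values lay under both WT values. K56A differed from EV by -0.24 ± 0.05 on the log2 scale (95% interval -0.36 to -0.11, adjusted p = 0.108, limma). WT differed from EV by -0.20 ± 0.05 (95% interval -0.32 to -0.072, adjusted p = 0.177), and K56A from WT by -0.040 ± 0.055 (95% interval -0.17 to 0.086, adjusted p = 0.821).

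AREG, the most abundant member in every library, gave less than EREG in each comparison. EPZ libraries had 83.0 and 89.3 FPKM, against 86.9 and 102 FPKM in DMSO libraries, and the groups overlapped. The log2 difference was -0.13 ± 0.12 (95% interval -0.41 to 0.15, adjusted p = 0.788, limma), and it was -0.014 without DMSO replicate 2 and -0.25 without DMSO replicate 1. K56A had 233 and 238 FPKM, WT had 233 and 236 FPKM, and EV had 253 and 264 FPKM. All 4 libraries with CDK9 put back were below both EV libraries, and K56A and WT overlapped. AREG differed by -0.13 ± 0.04 between K56A and EV (95% interval -0.22 to -0.052, adjusted p = 0.155) and by -0.14 ± 0.04 between WT and EV (95% interval -0.22 to -0.057, adjusted p = 0.146). K56A and WT differed by 0.0049 ± 0.036, with a 95% interval of -0.077 to 0.087.

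TGFA (ENSG00000163235), on the minus strand of chromosome 2, binds EGFR with high affinity. It had 26.0 and 26.5 FPKM in EPZ and 27.0 and 27.6 FPKM in DMSO, groups that did not overlap but lay close together. The log2 difference was -0.058 ± 0.12 (95% interval -0.33 to 0.21, adjusted p = 0.904, limma). In the knockdown lines it had 17.6 FPKM in both K56A libraries, 17.8 and 17.2 FPKM in WT, and 18.8 and 16.9 FPKM in EV, with the K56A and WT values inside the EV range. Its 95% intervals were -0.18 to 0.14 for K56A versus EV and -0.18 to 0.13 for WT versus EV.

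HBEGF (ENSG00000113070), on the minus strand of chromosome 5, is also the receptor of diphtheria toxin in its membrane form. It was the least abundant member, with 6.18 and 6.91 FPKM in EPZ and 6.79 and 6.18 FPKM in DMSO. The groups overlapped, and the log2 difference was 0.012 ± 0.15 (95% interval -0.34 to 0.37, adjusted p = 0.989, limma). Over the transcript listed in both knockdown tables, HBEGF had 5.37 and 5.68 FPKM in K56A, 6.60 and 5.37 FPKM in WT, and 5.58 and 5.75 FPKM in EV. WT replicate 1 was the highest of the 6 and the groups overlapped. With HBEGF kept in the fit, the log2 difference was -0.034 ± 0.11 for K56A versus EV (adjusted p = 0.923) and 0.066 ± 0.11 for WT versus EV (adjusted p = 0.856). The K56A table also lists HBEGF-202, a retained-intron transcript, at 0.439 and 0.493 FPKM in K56A and 0.145 and 0.0440 FPKM in EV. Adding it to HBEGF gave 5.80 and 6.17 FPKM in K56A and 5.72 and 5.79 FPKM in EV.

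EGFR (ENSG00000146648, chr7:55019017-55211628) was the only member whose EPZ libraries were both above the DMSO libraries. It had 14.3 and 13.2 FPKM in EPZ, against 11.0 and 12.2 FPKM in DMSO. The log2 difference was 0.24 ± 0.14 (95% interval -0.077 to 0.55, adjusted p = 0.756, limma). Among the knockdown lines EGFR had 25.3 and 24.8 FPKM in K56A, 25.4 and 24.5 FPKM in WT, and 25.4 and 25.4 FPKM in EV, a spread of group means of 1.02-fold. K56A lay just under EV and WT overlapped it. The 95% interval was -0.14 to 0.10 for K56A versus EV and -0.15 to 0.098 for WT versus EV. These values leave out EGFR-210, a retained-intron transcript listed for K56A and EV only. It made up 3.45% of EGFR in K56A and 1.59% in EV. Counting it, in the fit of K56A and EV alone, gave a log2 difference of 0.0059, so EGFR then did not lie lower in K56A.

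ERBB2 (ENSG00000141736, chr17:39687914-39728662) was the most abundant receptor. Its values were 35.9 and 33.6 FPKM in EPZ and 36.5 and 36.4 FPKM in DMSO, with a log2 difference of -0.069 ± 0.12 (95% interval -0.34 to 0.20, adjusted p = 0.883, limma). The groups did not overlap, but EPZ replicate 1 was within 1 FPKM of DMSO. K56A had 48.1 and 51.6 FPKM, WT had 45.1 and 48.5 FPKM, and EV had 45.2 and 48.1 FPKM, and the 3 groups overlapped. The log2 difference was 0.093 ± 0.061 for K56A versus EV (adjusted p = 0.512) and 0.0048 ± 0.061 for WT versus EV (adjusted p = 0.980).

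ERBB3 (ENSG00000065361, chr12:56080137-56103505) had 14.1 and 13.8 FPKM in EPZ and 16.1 and 14.7 FPKM in DMSO. Both EPZ values were lower than both DMSO values, with a log2 difference of -0.13 ± 0.13 (95% interval -0.43 to 0.17, adjusted p = 0.798, limma). In the knockdown lines it had 19.3 and 20.2 FPKM in K56A, 19.5 and 18.7 FPKM in WT, and 19.4 and 18.4 FPKM in EV, and the groups overlapped. The log2 difference was 0.065 ± 0.062 for K56A versus EV (adjusted p = 0.680) and 0.019 ± 0.062 for WT versus EV (adjusted p = 0.925).

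**Figure D1:**
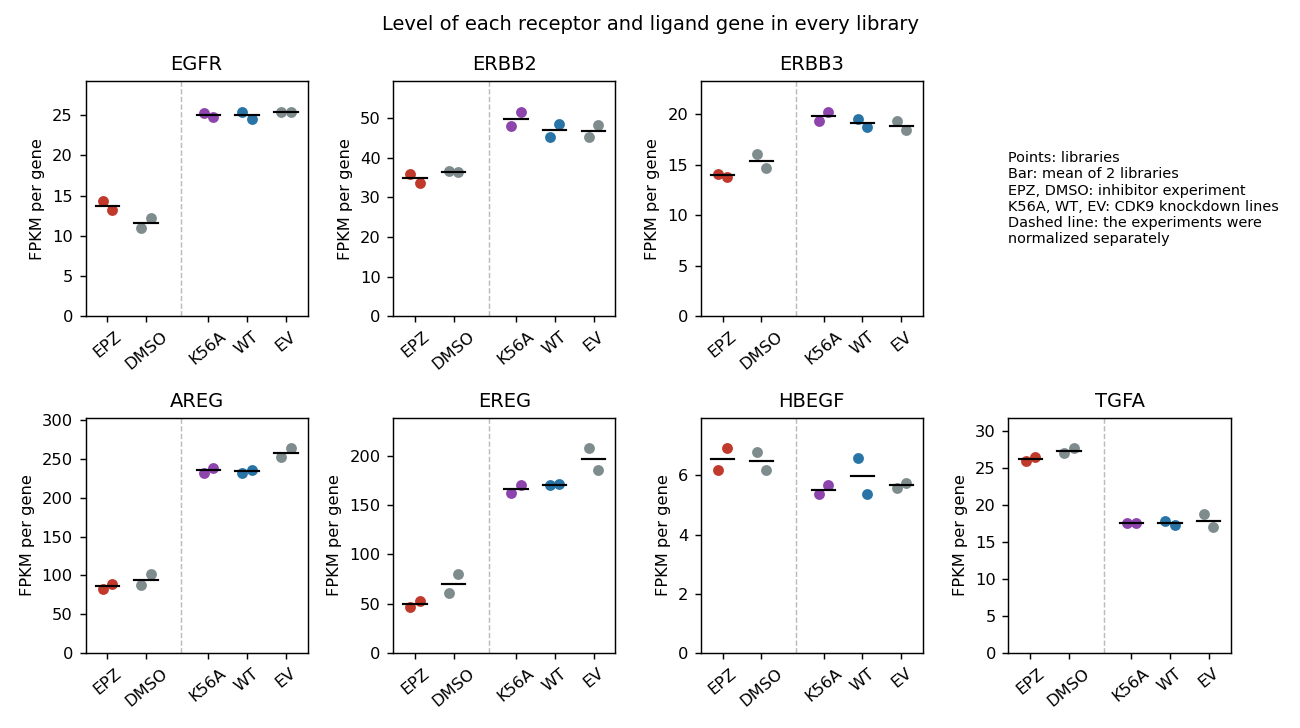
Level of each member in FPKM per gene (vertical axes, linear, from 0) in every library (points) with the mean of 2 libraries (bars), for EPZ and DMSO left of the dashed line and K56A, WT and EV right of it. EREG is lower in both EPZ libraries (46.2 and 52.4) than in both DMSO libraries (60.5 and 79.7), and AREG and EREG are lower in K56A and WT than in EV.

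In EPZ versus DMSO the groups did not overlap for 5 members, 1 higher (EGFR) and 4 lower (ERBB2, ERBB3, EREG and TGFA), beside 18.6% and 18.8% of all genes. In K56A versus EV, 3 members (EGFR, AREG and EREG) lay lower without overlap, beside 17.9% of genes. In WT versus EV, 2 members (AREG and EREG) did, beside 20.9% of genes, and in K56A versus WT 1 member (EREG), beside 19.5% of genes. EGFR is counted in K56A versus EV only because EGFR-210 was left out of its sum. The median log2 difference over the members tested was -0.069 in EPZ versus DMSO, where that of all genes was 0.0020. It was -0.020 in K56A versus EV (all genes 0.026), -0.024 in WT versus EV (all genes 0.0084) and 0.0050 in K56A versus WT (all genes 0.013). Apart from EREG, no member's 95% interval in EPZ versus DMSO excluded 0, and there the intervals reach further than in the knockdown comparisons.

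**Figure D2:**
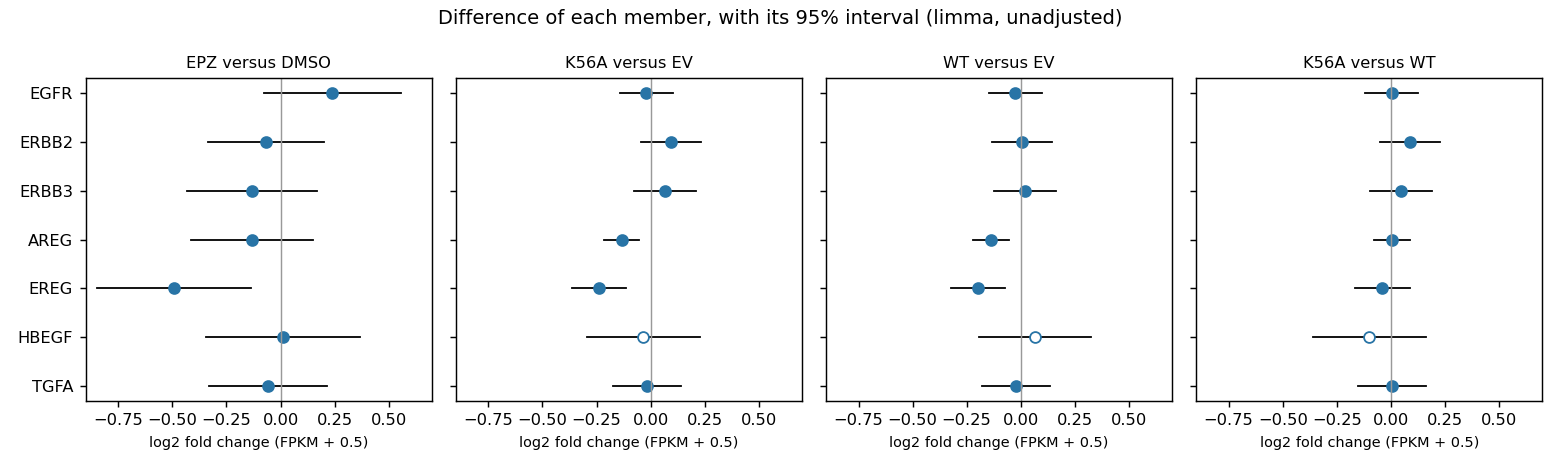
Log2 fold change of each member on the log2(FPKM + 0.5) scale (horizontal axis) with its unadjusted 95% interval from limma, for the 4 comparisons; open circles mark HBEGF in the knockdown comparisons, from the fit in which it was kept. EREG is the member furthest below 0 in EPZ versus DMSO (-0.49), K56A versus EV (-0.24) and WT versus EV (-0.20), and no member passed the adjusted threshold.

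The order of levels began with AREG, EREG and ERBB2 in all 10 libraries and ended with HBEGF. In the knockdown lines EGFR, ERBB3 and TGFA followed ERBB2, and in the inhibitor experiment TGFA came before ERBB3 and EGFR. Neighbours whose library values overlapped were ERBB3 and EGFR in EPZ, and ERBB3 and TGFA in EV. Among the 13130 genes tested in the inhibitor experiment, mean AREG stood at percentile 93.2 in EPZ and 93.7 in DMSO. Among the 11566 tested in the knockdown lines, it stood at 97.9 in K56A, 97.9 in WT and 98.0 in EV. EREG stood at 86.6 in EPZ and 91.2 in DMSO, and at 96.9 in K56A, 97.1 in WT and 97.5 in EV. The sets of genes differ, so percentiles cannot be compared between the experiments.

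The 4 ligands together came to 161 and 175 FPKM in EPZ, against 181 and 216 FPKM in DMSO. In the knockdown lines their sum was 418 and 431 FPKM in K56A, 428 and 429.9 FPKM in WT, and 485 and 472 FPKM in EV. The sum was thus lower in both EPZ libraries than in either DMSO library, and lower in K56A and WT than in EV, and AREG and EREG carried most of it. They made up 80.1% and 80.9% of the ligand sum in EPZ and 81.3% and 84.3% in DMSO, and between 94.3% and 95.2% in the knockdown lines. The 3 receptors summed to 64.3 and 60.6 FPKM in EPZ and 63.5 and 63.3 FPKM in DMSO, and to 92.7 and 96.6 FPKM in K56A, 90.1 and 91.8 FPKM in WT and 89.98 and 91.9 FPKM in EV. The ratio of AREG to EREG was 1.80 and 1.70 in EPZ, against 1.44 and 1.28 in DMSO, and it overlapped among the knockdown lines (1.22 to 1.43). The experiments were normalized in separate tables and were not tested against each other. Side by side, the DMSO and EV means were 94.6 and 258 FPKM for AREG, 70.1 and 196 FPKM for EREG, 11.6 and 25.4 FPKM for EGFR, and 27.3 and 17.8 FPKM for TGFA.

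The gene sums rest on transcripts of different kinds. In the sums used, EGFR and HBEGF were each carried by 1 protein-coding transcript, and TGFA by 3. The retained-intron transcripts EGFR-210 and HBEGF-202, listed for K56A and EV only, were outside these sums. AREG was carried by the coding AREG-201 (95.9% to 98.7% of its FPKM) and the retained-intron AREG-203. EREG was carried by the coding EREG-201 (80.3% to 86.8%), the noncoding EREG-202 and the retained-intron EREG-203. ERBB2 and ERBB3 were spread over 14 and 6 or 7 transcripts. Shares among overlapping transcripts of 1 gene are estimates, and whether the reads were counted by strand is not given in the sources used here.

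The retained-intron share of AREG was larger in EPZ, K56A and WT than in the libraries each was set against. AREG-203 had 3.38 and 3.46 FPKM in EPZ and 2.47 and 2.90 FPKM in DMSO, or 4.07% and 3.88% of AREG in EPZ and 2.84% and 2.83% in DMSO. It had 7.66 and 6.74 FPKM in K56A, 6.14 and 5.26 FPKM in WT, and 3.79 and 3.37 FPKM in EV. As a share of AREG that was 3.30% and 2.83% in K56A, 2.64% and 2.23% in WT, and 1.50% and 1.28% in EV. The 3 knockdown lines did not overlap, with K56A highest and EV lowest, while AREG-201 ran the other way between EV and the other lines. EREG-203 made up 10.5% and 11.6% of EREG in EPZ and 9.17% and 10.1% in DMSO, and 9.51% and 8.85% in K56A, 8.83% and 9.33% in WT, and 6.76% and 7.66% in EV. For EREG the level of the retained-intron transcript differed little (15.4 and 15.0 FPKM in K56A, 15.1 and 16.0 FPKM in WT, 14.0 and 14.2 FPKM in EV), and the coding EREG-201 was lower in K56A and WT than in EV.

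These shares were looked at after their values were seen and were not tested. Over all tested genes with coding and retained-intron transcripts and a mean of at least 5 FPKM, the retained-intron share was higher without overlap in 23.6% of 4730 genes in EPZ versus DMSO. The background was 20.1% of 4441 genes in WT versus EV, 20.7% in K56A versus EV and 18.5% in K56A versus WT. AREG's difference of 1.68 percentage points between K56A and EV stood at percentile 73.2 of those genes, and EREG's of 1.97 points at percentile 76.2. The mean share of ERBB2 was 9.35% in EPZ and 7.06% in DMSO, and 11.1% in K56A, 10.7% in WT and 9.05% in EV. The median over all genes was 0.37 points in EPZ versus DMSO and 0.15 points in K56A versus EV.

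**Figure D3:**
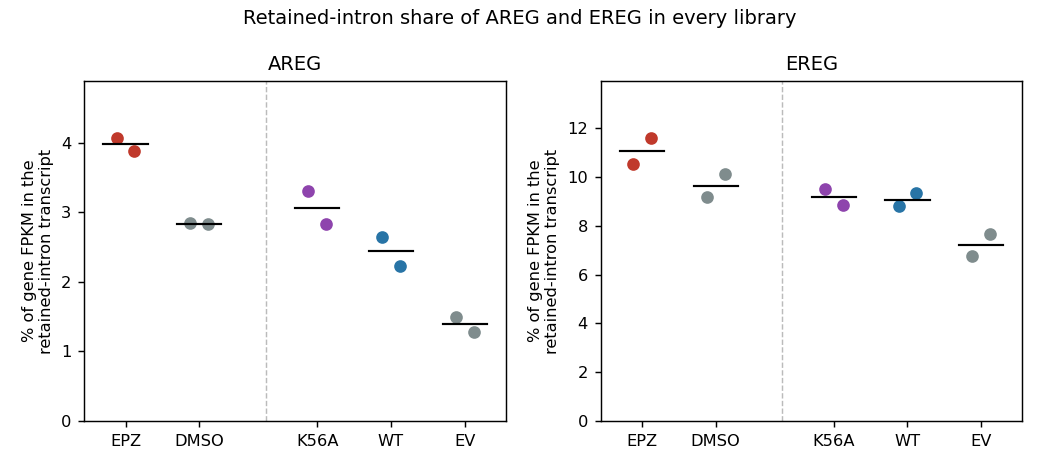
Share of the FPKM of AREG and of EREG lying in their retained-intron transcript (vertical axes, percent, from 0) in every library (points) with the mean of 2 libraries (bars). For AREG the share is 2.83% to 3.30% in K56A, 2.23% to 2.64% in WT and 1.28% to 1.50% in EV, with no overlap.

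ERBB2-201 and ERBB2-204, coding transcripts with different start positions, made up most of ERBB2. ERBB2-201 had 13.2 and 9.92 FPKM in EPZ, against 20.0 and 15.2 FPKM in DMSO, while ERBB2-204 had 12.4 and 13.1 FPKM in EPZ, against 8.52 and 10.7 FPKM in DMSO. Each pair of groups stood apart, in opposite directions, and the gene sum was nearly level. The transcripts span nearly the same stretch, chr17:39700064-39728658 for ERBB2-201 and chr17:39699560-39728662 for ERBB2-204. The division of reads between them is therefore an estimate, and whether their true proportions differed was not tested. Among the knockdown lines ERBB2-201 had 11.8 and 9.31 FPKM in K56A, 9.72 and 10.5 FPKM in WT, and 12.8 and 14.6 FPKM in EV. ERBB2-204 had 23.3 and 24.3 FPKM in K56A, 23.5 and 24.2 FPKM in WT, and 22.2 and 22.9 FPKM in EV. Here too ERBB2-201 was lower and ERBB2-204 higher than in EV, by less for ERBB2-204. The authors' adjusted p for ERBB2-201 was 0.958 in EPZ versus DMSO (edgeR). It was 0.161 in K56A versus EV and 0.00483 in WT versus EV (DESeq2), and ERBB2-204 passed in no comparison of theirs. These transcripts were described after their values were seen, and the share of all transcripts that stand apart so was not counted.

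**Figure D4:**
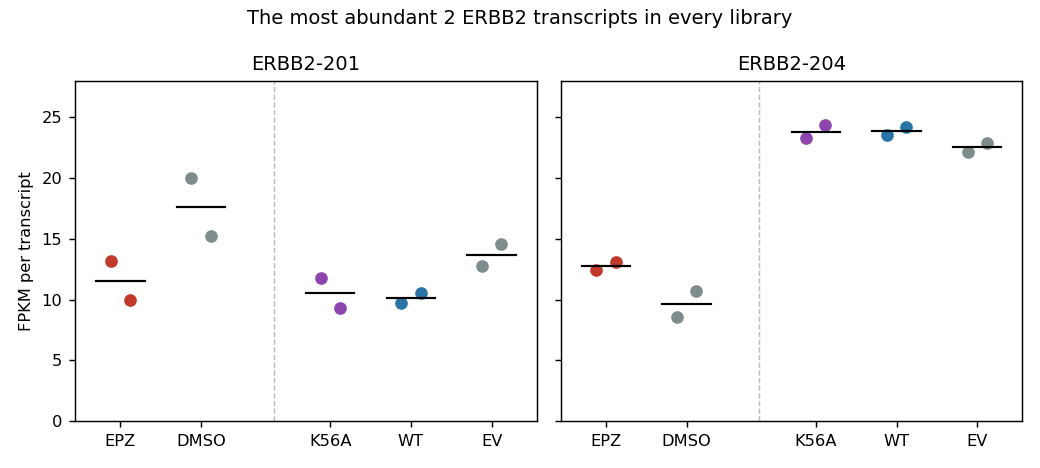
FPKM of the coding transcripts ERBB2-201 and ERBB2-204 (vertical axis, linear, from 0) in every library (points) with the mean of 2 libraries (bars). ERBB2-201 is lower in EPZ (13.2 and 9.92) than in DMSO (20.0 and 15.2), and ERBB2-204 is higher in EPZ (12.4 and 13.1) than in DMSO (8.52 and 10.7).

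The authors' deposited tables give their own tests per transcript, at an adjusted p of 0.05. In the authors' deposited table for EPZ versus DMSO, 2 of 31 member transcripts passed, beside 1.19% of all transcripts listed. These were ERBB2-206 (higher) and ERBB3-203 (lower), each with a group whose libraries were both at 0. In the authors' deposited table for WT versus EV, 5 of 30 passed, beside 3.33%, with ERBB2-206 higher and ERBB2-201, ERBB3-217, AREG-201 and EREG-201 lower. In the authors' deposited table for K56A versus EV, 6 of 34 passed, beside 3.8%, with ERBB2-206, ERBB2-219 and AREG-203 higher and ERBB3-217, AREG-201 and EREG-201 lower. Of these, ERBB2-206, ERBB3-217 and, in the K56A table, ERBB2-219 had a group with both libraries at 0. The authors' deposited tables put AREG-201 at a log2 fold change of -0.20 in K56A versus EV (adjusted p = 0.0019) and -0.17 in WT versus EV (adjusted p = 0.0114). For EREG-201 the authors' deposited tables give -0.29 in K56A versus EV (adjusted p = 0.00178), -0.21 in WT versus EV (adjusted p = 0.0483) and -0.52 in EPZ versus DMSO (adjusted p = 0.266). AREG-203 is given in the authors' deposited tables at 0.97 in K56A versus EV (adjusted p = 0.0107) and 0.66 in WT versus EV (adjusted p = 0.384). The direction of AREG-201 and EREG-201 in both is that of the gene sums, which did not pass in limma.

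ERBB2-206, annotated as a target of nonsense-mediated decay, was at 0 in both DMSO and both EV libraries. It had 1.84 and 0.702 FPKM in EPZ, 0.712 and 1.34 FPKM in K56A, and 0.710 and 0.796 FPKM in WT. The transcript was at most 5.13% of ERBB2 in any library. An exact 0 can be a failed estimate among overlapping transcripts, so no fold is given.

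Within 500 kb of AREG or EREG, 11 genes were listed, those 2 included. None of the 5 tested in EPZ versus DMSO and none of the 7 tested in each knockdown comparison passed limma's adjusted threshold. BTC (betacellulin), another EGF-family ligand, had 3.30 and 5.14 FPKM in EPZ, against 2.22 and 2.80 FPKM in DMSO. That is the opposite direction from EREG, with a log2 difference of 0.63 ± 0.24 and an adjusted p of 0.756 (limma). PARM1, a mucin-like membrane protein, had 8.35 and 8.13 FPKM in K56A, 8.51 and 8.75 FPKM in WT, and 9.60 and 9.78 FPKM in EV. Its log2 difference was -0.22 ± 0.07 for K56A versus EV (adjusted p = 0.222) and -0.16 ± 0.07 for WT versus EV (adjusted p = 0.401), and it was 0.32 ± 0.17 for EPZ versus DMSO. EPGN (epigen), a further EGF-family ligand next to EREG, had at most 0.322 FPKM in any knockdown library. CXCL1, CXCL2 and CXCL3 had at most 1.37 FPKM in any library.

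Of the other ligands and the remaining receptor of the family (EGF, BTC, EPGN, NRG1, NRG2, NRG3, NRG4 and ERBB4), 0 passed in any comparison by limma. BTC, NRG2 and NRG4 were tested in EPZ versus DMSO and BTC alone in the knockdown lines. The neuregulin NRG4 had 1.03 and 1.06 FPKM in EPZ, against 2.74 and 1.66 FPKM in DMSO (log2 difference -0.78 ± 0.27, adjusted p = 0.756). BTC differed by 0.14 ± 0.13 in K56A versus EV, -0.12 ± 0.13 in WT versus EV and 0.27 ± 0.13 in K56A versus WT. In the knockdown groups EGF, EPGN, NRG1 and NRG2 averaged 0.113 to 0.536 FPKM.

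Among ligand shedding genes, 0 of 7 tested passed in EPZ versus DMSO and 0 of 6 in each knockdown comparison. ADAM17, the main sheddase of AREG, EREG, HBEGF and TGFA, gave 0.29 ± 0.15 in EPZ versus DMSO on the log2 scale, and ADAM9, a related protease, 0.22 ± 0.12. RHBDF1, which guides ADAM17 to the cell surface, gave 0.29 ± 0.07 in K56A versus EV (adjusted p = 0.132, limma) and 0.12 ± 0.07 in WT versus EV. ADAM10 gave -0.078 ± 0.041 in K56A versus EV. ADAM15 gave -0.077 ± 0.039 in WT versus EV and 0.14 ± 0.04 in K56A versus WT, where RHBDF2, a relative of RHBDF1, gave 0.13 ± 0.05. The median of the list was -0.024 in EPZ versus DMSO, 0.018 in K56A versus EV, -0.031 in WT versus EV and 0.066 in K56A versus WT.

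The receptor adaptors and effectors had 0 of 13 past the threshold in EPZ versus DMSO and 0 of 12 in each knockdown comparison, with medians of 0.093 in EPZ versus DMSO and 0.016, 0.0049 and -0.029 in K56A versus EV, WT versus EV and K56A versus WT. PIK3R1, a regulatory subunit of PI3 kinase, gave 0.33 ± 0.16 and SOS2, a RAS exchange factor, 0.27 ± 0.17 in EPZ versus DMSO. PIK3CA, a catalytic subunit, gave 0.19 ± 0.12 in K56A versus EV and 0.23 ± 0.12 in WT versus EV. The kinase AKT2 gave 0.078 ± 0.046 in K56A versus EV and 0.12 ± 0.05 in K56A versus WT, AKT1 gave 0.073 ± 0.055 in K56A versus WT, and the adaptor GRB2 gave -0.090 ± 0.074 in WT versus EV. In the RAS to ERK cascade 0 of 11 passed in EPZ versus DMSO and 0 of 8 in each knockdown comparison. The kinases MAPK3 (ERK1) and MAP2K1 (MEK1) gave -0.42 ± 0.17 and -0.17 ± 0.12 in EPZ versus DMSO. MAP2K2 (MEK2) gave 0.084 ± 0.041 in K56A versus EV, -0.098 ± 0.041 in WT versus EV and 0.18 ± 0.04 in K56A versus WT (adjusted p = 0.159, limma).

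ERRFI1, which binds and inhibits EGFR and ERBB2, was the single gene of the 7 pathway lists to pass in any comparison. It had 175 and 179 FPKM in K56A, 189 and 187 FPKM in WT, and 156 and 159 FPKM in EV. All 4 libraries with CDK9 put back lay above EV, and WT lay above K56A. ERRFI1 rose in WT versus EV by 0.26 ± 0.03 (adjusted p = 0.0308, limma). The call was lost without any 1 of the 6 knockdown libraries (adjusted p of 0.0597 to 0.197), with no intensity trend (0.338) and in the WT table alone (0.0699), and the difference stayed between 0.24 and 0.27. The difference was 0.17 ± 0.03 for K56A versus EV (adjusted p = 0.0756) and -0.084 ± 0.034 for K56A versus WT (adjusted p = 0.351). In EPZ it had 91.0 and 97.3 FPKM, against 94.96 and 107 FPKM in DMSO.

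The list of receptor and RAS inhibitors to which ERRFI1 belongs had 1 of 9 higher and 0 lower in WT versus EV, 0 of 9 in the other knockdown comparisons and 0 of 11 in EPZ versus DMSO. Its median was 0.096 in WT versus EV, 0.039 in K56A versus EV, -0.084 in K56A versus WT and 0.13 in EPZ versus DMSO. SPRY1, an inhibitor of RAS signalling, had 3.94 and 4.31 FPKM in EPZ, against 2.69 and 1.81 FPKM in DMSO (log2 difference 0.77 ± 0.22, adjusted p = 0.756). SOCS4, which targets EGFR for degradation, gave 0.37 ± 0.18 in EPZ versus DMSO. The RAS pathway inhibitor SPRED2 gave 0.13 ± 0.07 in K56A versus EV and 0.14 ± 0.07 in WT versus EV, and its relative SPRED1 gave -0.34 ± 0.12 in K56A versus WT.

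For receptor ubiquitination and endocytosis, 0 of 9 passed in EPZ versus DMSO and 0 of 8 in each knockdown comparison. EPN1, an endocytic adaptor, gave -0.32 ± 0.14 in EPZ versus DMSO, 0.17 ± 0.08 in K56A versus EV and 0.18 ± 0.08 in K56A versus WT. The sorting proteins STAM and HGS gave -0.25 ± 0.16 in EPZ versus DMSO and -0.11 ± 0.06 in WT versus EV, in that order. CBLC, a ubiquitin ligase for activated EGFR, gave 0.15 ± 0.07 in K56A versus WT and -0.13 ± 0.07 in WT versus EV, and RNF41, a ligase for ERBB3, gave 0.091 ± 0.092 in K56A versus EV. Of 10 genes that report ERK output, 0 passed in any comparison. SPRY2 and the transcription factor ETV4 gave 0.40 ± 0.20 and -0.14 ± 0.15 in EPZ versus DMSO. The receptor EPHA2 gave 0.11 ± 0.04 in K56A versus EV, -0.093 ± 0.039 in WT versus EV and 0.21 ± 0.04 in K56A versus WT (adjusted p = 0.121, limma). CCND1 (cyclin D1) gave -0.14 ± 0.05 in K56A versus EV, DUSP4, an ERK phosphatase, 0.13 ± 0.05 in WT versus EV, and ETV4 0.11 ± 0.05 in K56A versus WT.

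Of the epithelial markers, CLDN7, a tight junction claudin, was lower in the lines in which AREG and EREG were lower. It had 126 and 124 FPKM in K56A, 115 and 113 FPKM in WT, and 148 and 154 FPKM in EV. CLDN7 fell in K56A versus EV (-0.28 ± 0.04, adjusted p = 0.0265, limma) and in WT versus EV (-0.41 ± 0.04, adjusted p = 0.0125), the single marker of 7 to pass in each. Without 1 knockdown library the adjusted p was 0.0558 to 0.187 in K56A versus EV and 0.0325 to 0.168 in WT versus EV. The call in K56A versus EV was lost without any 1 of the 6, and that in WT versus EV without WT replicate 1, WT replicate 2 or EV replicate 2. With no intensity trend both were lost (0.265 in K56A versus EV and 0.302 in WT versus EV), and so was that of K56A versus EV in its own table alone (0.0823). The log2 differences of the 7 markers were mixed, with 4 below 0 and 3 above in K56A versus EV, and 5 below and 2 above in WT versus EV. Those above 0 in K56A versus EV were KRT18 (0.099 ± 0.036), KRT19 (0.074 ± 0.037) and CDH1 (0.053 ± 0.063). In WT versus EV they were CDH1 (0.030 ± 0.063) and KRT18 (0.0092 ± 0.036). Besides CLDN7, those below 0 in both were CLDN4 (-0.18 ± 0.04 and -0.15 ± 0.04), EPCAM (-0.12 ± 0.04 and -0.14 ± 0.04) and KRT8 (-0.048 ± 0.033 and -0.12 ± 0.03). Values are for K56A and then WT versus EV, and none of these passed. KRT19 was below 0 in WT versus EV alone (-0.037 ± 0.037). The 7 markers summed to 1927 and 1912 FPKM in K56A, 1822 and 1835 FPKM in WT, and 1939 and 1991 FPKM in EV, and their part in the ligand levels was not tested. The summed fibroblast list, nearly all of it COL1A1, ran the other way, at 36.3 and 34.6 FPKM in K56A and 34.1 and 33.1 FPKM in WT. EV had 30.0 and 27.6 FPKM, so all 4 libraries with CDK9 put back lay above EV. PDGFRB, near the floor, did not rise. It had 0.103 and 0.060 FPKM in K56A, 0.091 and 0.084 FPKM in WT, and 0.120 and 0.174 FPKM in EV. COL1A1, the single fibroblast marker tested, gave 0.30 ± 0.06 in K56A versus EV (adjusted p = 0.0803, limma) and 0.22 ± 0.06 in WT versus EV (adjusted p = 0.164). Its part in the ligand levels was not tested either. Genes encoded in mitochondria took 25.3% and 25.4% of FPKM in K56A, 27.7% and 27.1% in WT, and 27.9% and 27.5% in EV. With the libraries rescaled to a sum without mitochondrial genes, CDK9 and DOT1L, no member passed in any comparison.

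The genes whose pattern over the 6 knockdown libraries was most like that of EREG, the member with the smallest p there, were TMEM38B, ERVMER34-1 and ABHD3. Likeness was the root mean square difference of log2 values centred on their mean, among 8354 genes with a mean of at least 5 FPKM. It was 0.020 for TMEM38B, 0.026 for ERVMER34-1 and 0.028 for ABHD3, where EREG's own values spread by 0.12. TMEM38B, a cation channel subunit of the endoplasmic reticulum, had 10.0 and 10.5 FPKM in K56A, 10.5 and 10.5 FPKM in WT, and 12.4 and 11.2 FPKM in EV. As in EREG, EV replicate 1 was the highest library, a likeness by which TMEM38B was chosen. AREG came at rank 454 in this order, with 0.078, and the remaining members tested came at rank 1034 (TGFA) to 5184 (ERBB2).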

How the data were processed

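Per the labels, TRIzol RNA went into TruSeq mRNA libraries. The authors deposited FPKM per transcript in 3 tables of 4 libraries, one for each of EPZ with DMSO, WT with EV, and K56A with EV. Per the file headers, these tables also hold a log2 fold change and raw and adjusted p-values that the authors computed per transcript, with edgeR for the inhibitor and DESeq2 for the knockdown lines. Per the submitters' processing notes GRCh38 was the build, and RSEM 1.3.3, STAR 2.7.1a, DESeq2 1.32.0 and Trim Galore 0.6.6 the tools. For the annotation release and the strand setting, the answer is not given in the sources used here, and 4 columns of group summaries were not used.

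FPKM were summed per gene. In the knockdown tables the sums ran over the 69086 shared transcripts, K56A was multiplied by 1.0007 (the factor between the copies of EV), and a gene was left out when over 5% of its FPKM lay in transcripts of 1 table only (2284 of 13850 genes). Genes reaching an FPKM of 1 in 2 or more libraries entered limma 3.58.1 (R 4.3.3) as log2(FPKM + 0.5), a scale that understates changes of low genes. The model held group means and an intensity trend, and its two-sided p-values were adjusted by the Benjamini-Hochberg method. The fit was tested on simulated data with planted changes larger than any member's difference given here. That run therefore does not bear on differences of the size seen in the members. Other values came from Python 3.11.15 with numpy 2.4.6 and pandas 2.3.3, and plots from matplotlib 3.10.9. The members and gene lists were chosen with earlier results of these data known. Named are all 7 members, CDK9 and DOT1L, list genes that passed or else the 2 with the smallest p per list and comparison, genes within 500 kb of AREG or EREG, and the 3 genes most like EREG. Some genes that this rule names are not reported here. The transcripts and the neighbours described beyond this were picked after their values were seen. Alternatives changed the pseudocount, low-value filter, scaling, transcript types, trend, replicate block and libraries.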

Additional observations from a re-analysis of the deposited data

How the results depend on the processing

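Of 63 alternatives for the number of members past the threshold, 62 gave 0. The exception is EPZ versus DMSO without DMSO replicate 1, where 1 member (EREG, lower) passed, so leaving out a library gave 0 to 1 there. EREG kept its sign in every alternative: -0.69 to -0.30 in EPZ versus DMSO, -0.32 to -0.16 in K56A versus EV and -0.28 to -0.12 in WT versus EV without 1 library, with adjusted p of 0.00203 to 0.893, 0.0527 to 0.408 and 0.0903 to 0.429 over all alternatives. In EPZ versus DMSO without 1 library, AREG was -0.25 to -0.014, ERBB2 -0.12 to -0.022 and ERBB3 -0.20 to -0.071. AREG kept its sign against DMSO and EV, with adjusted p of 0.0950 to 0.496 in K56A versus EV and 0.0913 to 0.441 in WT versus EV.

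Signs turned only for differences near 0, and the cause was not tested. With median ratio rescaling, ERBB2 was -0.0011 in WT versus EV, and EGFR -0.0102, AREG -0.0091 and TGFA -0.0085 in K56A versus WT. With the sum without mitochondrial genes, CDK9 and DOT1L, EGFR was -0.0057, AREG -0.0045 and TGFA -0.0040 in K56A versus WT. With protein-coding transcripts only, ERBB2 was -0.047 in WT versus EV and AREG -0.0044 in K56A versus WT. In its own deposited table alone, K56A versus EV gave 0.0059 for EGFR and 0.051 for HBEGF. Leaving out 1 library gave -0.064 to 0.087 for HBEGF in EPZ versus DMSO. In WT versus EV it gave -0.050 to 2e-04 for EGFR, -0.048 to 0.057 for ERBB2, -0.017 to 0.055 for ERBB3 and -0.095 to 0.048 for TGFA. In K56A versus EV it gave -0.090 to 0.053 for TGFA, and in K56A versus WT -0.021 to 0.028 for EGFR, -0.012 to 0.021 for AREG and -0.018 to 0.028 for TGFA.

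The labels do not say that replicate numbers pair the samples. Deviations of same-numbered libraries correlated at 0.245 (EPZ and DMSO), -0.033 (K56A and WT), -0.015 (K56A and EV) and 0.033 (WT and EV). With the replicate block, 0 members passed in each comparison, and 2, 53, 46 and 3 genes in EPZ versus DMSO, K56A versus EV, WT versus EV and K56A versus WT. In EPZ versus DMSO the block took the genes at an unadjusted p under 0.05 to 2206, against 765 without it, and EREG to an SE of 0.082 and an adjusted p of 0.146, against 0.154 and 0.756 without it. The background count of genes, 1, 91, 62 and 7 in that order, moved most without DMSO replicate 2 (1592 in EPZ versus DMSO, against 33 to 76 without another library). It was 0, 180, 168 and 21 over genes averaging at least 5 FPKM, 0, 55, 40 and 1 with no filter, 3, 41, 37 and 1 with protein-coding transcripts only, and 0, 4, 1 and 0 with no trend. The own table alone gave 22 in K56A versus EV and 10 in WT versus EV, pseudocount 0.1 gave 0 in EPZ versus DMSO, and the sum without mitochondrial genes, CDK9 and DOT1L gave 15 in K56A versus WT. Leaving out 1 knockdown library gave 6 to 37, 2 to 11 and 1 to 19. With 2 libraries a group and unknown depth, differences of the size of those in the receptors could not be told from 0.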
